A study of Mus musculus with 4 samples.

Results

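The genes described here are Npas4, Gadd45b and Nr4a1, 3 genes known for rapid induction by cell activity or stress, and the members are the Mef2D ChIP-seq regions that lie near them. A region or peak was a member when it shared at least 1 bp with a window of the mouse build mm9 that held the gene and about 50 kb on each side. The windows were chr19:4934000-5040000 for Npas4, chr10:80342000-80446000 for Gadd45b and chr15:101034000-101155000 for Nr4a1. They held 26 of the 19749 regions of the authors' combined table (7, 11 and 8 in the order above), 22 of 8872 listed Mef2Da1 peaks and 17 of 10105 listed Mef2Da2 peaks. Membership rests on proximity only, and no region was assigned to a gene. The genes were picked after the strongest peaks of these data were known, so their heights and ranks are a description without a test.

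Chromatin came from C2C12, a mouse myoblast line, kept for 5 days in low horse serum with insulin and transferrin so that the cells fused into myotubes. There were 4 groups of 1 library each. The endogenous splice isoforms Mef2Da1 and Mef2Da2 were each precipitated with an antibody raised against a peptide of that isoform, and in Mef2Da1-BLOCK and Mef2Da2-BLOCK the same antibody had been blocked with its peptide. Cells of all groups were cross-linked with formaldehyde, and their chromatin was cut with micrococcal nuclease and sonication. All of it came from 1 cultured line without replicates, and no mRNA level was analysed here, so it is not known from these files whether the 3 genes were expressed.

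Mef2D belongs to the MADS-box factors of the MEF2 family, which bind short AT-rich DNA sites and drive muscle genes together with the myogenic bHLH factors. Its pre-mRNA carries mutually exclusive alpha exons: the form with the first is found in most tissues, and the form with the other appears in differentiating muscle. MEF2 factors are also known as calcium-responsive regulators of immediate early genes. Npas4 encodes a bHLH-PAS transcription factor induced by calcium entry, best known from neurons. Gadd45b encodes a small stress-induced protein that acts on MAP kinase signalling and has been tied to DNA repair and demethylation. Nr4a1 encodes the orphan nuclear receptor Nur77, an immediate early gene and a known MEF2 target in T cells.

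The 250 bases before each gene's annotated start are shown because these are the genes that define the windows. They are taken from RefSeq, build GRCm38.p6, read 5′ to 3′ on the gene's strand, and all 3 genes matched an entry. Capitals mark the half-site of the cAMP response element, TGACG, on either strand, where it reads CGTCA. These coordinates are of another build than the peaks, so whether a peak covers a promoter was not analysed.
Npas4 promoter, chr19:4989972-4990221, minus strand: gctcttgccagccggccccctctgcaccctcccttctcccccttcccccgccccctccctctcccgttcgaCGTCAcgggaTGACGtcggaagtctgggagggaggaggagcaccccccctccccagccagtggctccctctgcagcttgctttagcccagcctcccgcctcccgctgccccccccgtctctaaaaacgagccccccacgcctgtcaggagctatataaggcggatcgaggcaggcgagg
Gadd45b promoter, chr10:80929841-80930090, plus strand: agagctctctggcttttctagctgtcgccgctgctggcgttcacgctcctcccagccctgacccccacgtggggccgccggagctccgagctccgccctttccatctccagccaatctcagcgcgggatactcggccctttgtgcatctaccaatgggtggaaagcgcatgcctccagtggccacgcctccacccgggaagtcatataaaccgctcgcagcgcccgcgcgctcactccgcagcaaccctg
Nr4a1 promoter, chr15:101266596-101266845, plus strand: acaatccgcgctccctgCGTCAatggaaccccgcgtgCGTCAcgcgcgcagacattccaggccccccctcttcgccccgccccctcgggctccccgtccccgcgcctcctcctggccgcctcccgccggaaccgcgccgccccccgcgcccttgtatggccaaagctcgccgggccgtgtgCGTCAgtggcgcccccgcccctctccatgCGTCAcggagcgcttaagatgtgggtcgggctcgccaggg

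The half-site TGACG occurred 2 times before Npas4, 179 and 169 bases upstream of the start, and 4 times before Nr4a1, at 233, 213, 69 and 40 bases. It was not found before Gadd45b. Of 32851 RefSeq promoters cut to the same length, 17.8% held it. The full element TGACGTCA, which contains the half-site, stood in none of the 3 and in 1.55% of all promoters. The string TATAA, searched on both strands, occurred once before Npas4 (26 bases) and once before Gadd45b (46 bases), and 22.8% of promoters held it. The MEF2 consensus, whose AT-rich core can overlap TATAA, was absent from these 3 stretches and present in 2.92% of promoters. The CArG box of serum response factor was likewise absent and present in 1.47%, and the AP-1 site TGANTCA was absent and present in 6.75%. GC content was 68.8% for Npas4, 65.2% for Gadd45b and 74.4% for Nr4a1, against a median of 52.4%.

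In each window the region with the highest summed height of Mef2Da1 and Mef2Da2 is called the leading region. Height is the authors' maximal coverage of a region, a whole number that is not scaled to sequencing depth, and depth is unknown. Folds over the blocked control are ratios of heights after adding 1 to each, without scaling. Region coordinates are printed as the combined table gives them, and a region is numbered by its order in the window.

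The leading region of the Npas4 window lay on chromosome 19 at 4992148 to 4993765. Mef2Da1 reached a height of 808 there and Mef2Da2 a height of 753, while Mef2Da1-BLOCK stood at 18 and Mef2Da2-BLOCK at 14. Both isoforms were far above both blocked libraries: the fold over the own blocked control was 42.6 for Mef2Da1 and 50.3 for Mef2Da2. Each isoform had its highest height of all 19749 regions here. The Mef2Da1 fold was also the highest of the table, whereas the highest Mef2Da2 fold, 75.0, was at another region. The blocked heights were ordinary, since 55.97% of all regions were at least as high in Mef2Da1-BLOCK and 39.6% in Mef2Da2-BLOCK.

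The leading region of the Gadd45b window, on chromosome 10 at 80401686 to 80404955, reached 405 in Mef2Da1 and 369 in Mef2Da2, whereas Mef2Da1-BLOCK stood at 33 and Mef2Da2-BLOCK at 19. That is 11.9 and 18.5 times the own blocked control. It was the 5th highest region of the table for Mef2Da1 and the 19th for Mef2Da2. Here the blocked control of Mef2Da1 was itself high: only 3.62% of regions reached 33 in Mef2Da1-BLOCK, and 13.5% reached 19 in Mef2Da2-BLOCK. The region was 3269 bp wide, against a median of 556 bp over the table.

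The leading region of the Nr4a1 window, on chromosome 15 at 101083326 to 101085320, was lower, with 265 for Mef2Da1 and 209 for Mef2Da2 against blocked heights of 37 and 15. The fold over the blocked control was 7.00 for Mef2Da1 and 13.1 for Mef2Da2. It ranked 28th by Mef2Da1 height and 161st by Mef2Da2 height. Just 1.14% of regions were as high in Mef2Da1-BLOCK, whereas 32.9% were as high in Mef2Da2-BLOCK. The share of the blocked signal in the height of these leading regions was not tested.

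**Figure D1:**
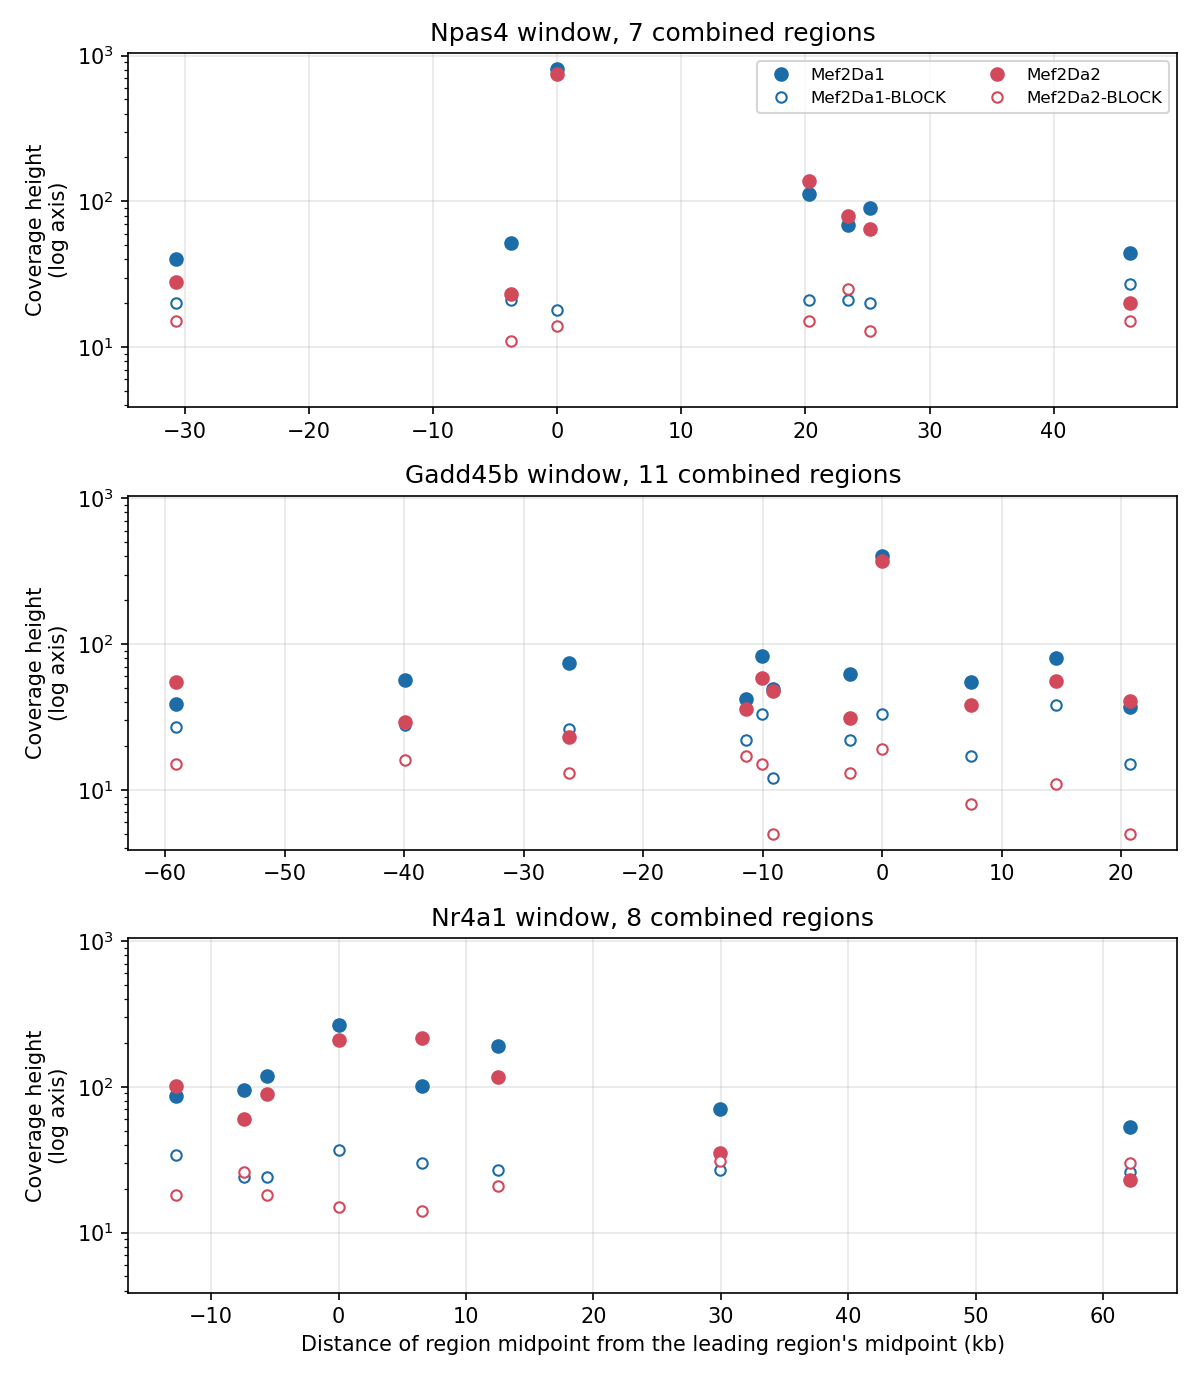
Coverage height (log axis) of every combined region in the 3 windows against the distance of its midpoint from the leading region's midpoint (kb), with filled points for Mef2Da1 and Mef2Da2 and open points for their blocked controls, 1 library each. The Npas4 and Gadd45b windows each have 1 region far above the rest in both isoforms (808 and 753, 405 and 369), whereas the Nr4a1 window has 5 regions at 95 or more in Mef2Da1.

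The windows differed in how steeply signal fell away from the leading region, a comparison within a library that needs no scaling. In the Npas4 window the leading region was 7.21 times as high as the next in Mef2Da1 (112) and 5.46 times as high in Mef2Da2 (138). In the Gadd45b window the step was 4.88-fold for Mef2Da1, where the next region reached 83, and 6.25-fold for Mef2Da2, where it reached 59. In the Nr4a1 window the highest region exceeded the next only 1.38-fold for Mef2Da1 (265 and 192) and 1.03-fold for Mef2Da2 (216 and 209). The highest Mef2Da2 region there was not the leading one but its neighbour. No blocked library had a step above 1.67-fold in any window.

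The remaining Npas4 regions with peaks of both isoforms formed a group on the side of higher coordinates, 20.3, 23.4 and 25.2 kb from the leading midpoint. The first, 5012792 to 5013739, had heights of 112 for Mef2Da1 and 138 for Mef2Da2 against 21 and 15. The next, 5015953 to 5016783, had 69 and 80 against 21 and 25. The last of the group, 5017490 to 5018907, had 90 and 65 against 20 and 13. All 3 were above their blocked controls, by 3.18 to 5.14 times for Mef2Da1 and 3.12 to 8.69 times for Mef2Da2. The middle one had an unusual Mef2Da2-BLOCK height, 25, which only 2.12% of all regions reached. The other 3 regions of the window had heights of 40 to 52 for Mef2Da1 and 20 to 28 for Mef2Da2 against 20 to 27 and 11 to 15.

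The Gadd45b window held the most regions, 11, with a median height of 57 for Mef2Da1 and 41 for Mef2Da2, against 43 and 37 over the whole table. Both isoforms had a listed peak in 3 of them (27.3%, near the 26.6% of all combined regions). Mef2Da1 alone had one in 4 (36.4%, against 15.2% of all regions), Mef2Da2 alone in 3 (27.3%, against 20.1%), and neither in 1 (9.09%, against 38.1%). A run of 3 regions parted by only 3 and 8 bp lay 9.12 to 11.4 kb from the leading midpoint, toward lower coordinates. Its middle region, 80392515 to 80393961, had heights of 83 for Mef2Da1 and 59 for Mef2Da2 against 33 and 15. Its last, 80393970 to 80394441, had 49 and 48 against 12 and 5. This last region had the largest fold over the blocked control of the window after the leading region, 3.85 for Mef2Da1 and 8.17 for Mef2Da2. Its isoform heights were reached by 35.5% and 32.5% of all regions, and its low blocked heights by 86.3% and 95.6%.

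The 8 Gadd45b regions without peaks of both isoforms had heights of 37 to 80 for Mef2Da1 and 23 to 56 for Mef2Da2, against blocked heights of 15 to 38 and 5 to 17. In the highest of them by Mef2Da1, 80417530 to 80418164, Mef2Da1 stood at 80 with a −log10 p of 11.8 in the deposited table and yet had no listed peak. Mef2Da1-BLOCK stood at 38 there, with a score of 5.12, and 0.861% of all regions were that high in that library. Mef2Da2 had a listed peak in the same region with a height of 56 against 11 in its blocked control.

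In the Nr4a1 window, 6 of the 8 regions held peaks of both isoforms (75.0%, against 26.6% of all regions and 57.1% in the Npas4 window), and the other 2 had a listed peak of Mef2Da1 alone. The 6 lay within 12.8 kb of the leading midpoint on either side. Toward lower coordinates, the region at 101070988 to 101072157 had 87 for Mef2Da1 and 102 for Mef2Da2 against 34 and 18. The region at 101076295 to 101077487 had 95 and 60 against 24 and 26. The region at 101078192 to 101079140 had 118 and 89 against 24 and 18. In these 3 the isoforms were 2.26 to 5.42 times their blocked controls, and in the middle one Mef2Da2-BLOCK was slightly above Mef2Da1-BLOCK.

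Toward higher coordinates 2 more regions held peaks of both isoforms, the first higher in Mef2Da2 and the other in Mef2Da1. Both directions were also seen toward lower coordinates (87 and 102, and 95 and 60, Mef2Da1 first). At 101090386 to 101091297 Mef2Da2 reached 216 and Mef2Da1 102, against blocked heights of 14 and 30. At 101096071 to 101097521 Mef2Da1 reached 192 and Mef2Da2 117, against 27 and 21. The first of these was 14.5 times its blocked control in Mef2Da2 and 3.32 times in Mef2Da1, and the other 5.36 and 6.89 times. The outer 2 regions, 29.97 and 62.1 kb from the leading midpoint, had 71 and 53 for Mef2Da1 but 35 and 23 for Mef2Da2. Their Mef2Da2-BLOCK heights of 31 and 30 were reached by 0.192% and 0.319% of all regions, so Mef2Da2 was 1.13 and 0.774 times its blocked control there. All 8 regions of the window lay above the median blocked height of the whole table (19 for Mef2Da1-BLOCK and 12 for Mef2Da2-BLOCK). In the Npas4 window 6 of 7 did so in each blocked library, and in the Gadd45b window 8 and 7 of 11. Over the whole table, 45.0% of regions did so in Mef2Da1-BLOCK and 46.7% in Mef2Da2-BLOCK. Height is a maximum over a region, so width also bears on it. Median width was 831, 680 and 1180.5 bp in the Npas4, Gadd45b and Nr4a1 windows, against 556 bp over the table. The part of local background or of region width in the heights of the windows was not tested.

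Ranks of the leading peaks in the authors' lists gave the same order of loci as the heights of the leading regions. Ranks and heights come from the same libraries, so the ranks are not separate support. The lists give a −log10 p per peak, none below 6.01, and rank 1 is the highest. The Npas4 leading peak, 4992440 to 4993596 for Mef2Da1 and 4992466 to 4993333 for Mef2Da2, was rank 1 in both lists, with −log10 p of 167.7 and 136.1. The Gadd45b leading peak, 80403079 to 80404373 for Mef2Da1 and 80403210 to 80404332 for Mef2Da2, was rank 5 of 8872 and rank 18 of 10105, with −log10 p of 75.4 and 68.6. The Nr4a1 leading peak, 101083983 to 101085045 for Mef2Da1 and 101084015 to 101084691 for Mef2Da2, was rank 27 and rank 184, with −log10 p of 47.6 and 37.9. The leading peak was thus in the strongest 1% of the Mef2Da1 list at all 3 loci and in the strongest 1% of the Mef2Da2 list at Npas4 and Gadd45b. At Nr4a1 it was at 1.82% of the Mef2Da2 list.

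Beside the leading peaks, a few other members ranked high. In the strongest 10% of the Mef2Da1 list there were 8 member peaks: 5 at Nr4a1 (ranks 27, 98, 518, 805 and 808), 2 at Npas4 (ranks 1 and 541) and 1 at Gadd45b. In the strongest 10% of the Mef2Da2 list there were 5: 2 at Nr4a1 (ranks 166 and 184), 2 at Npas4 (ranks 1 and 615) and 1 at Gadd45b. The rank 166 peak of Mef2Da2, 101090487 to 101091256, overlapped the rank 808 peak of Mef2Da1. The rank 98 peak of Mef2Da1, 101096156 to 101097452, overlapped the rank 1085 peak of Mef2Da2. The weakest members stood near the end of both lists, at rank 8077 for Mef2Da1 and 9363 for Mef2Da2, both in the Gadd45b window. Median position was at 15.3%, 34.7% and 9.09% of the Mef2Da1 list for Npas4, Gadd45b and Nr4a1, and at 22.8%, 52.6% and 13.5% of the Mef2Da2 list.

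**Figure D2:**
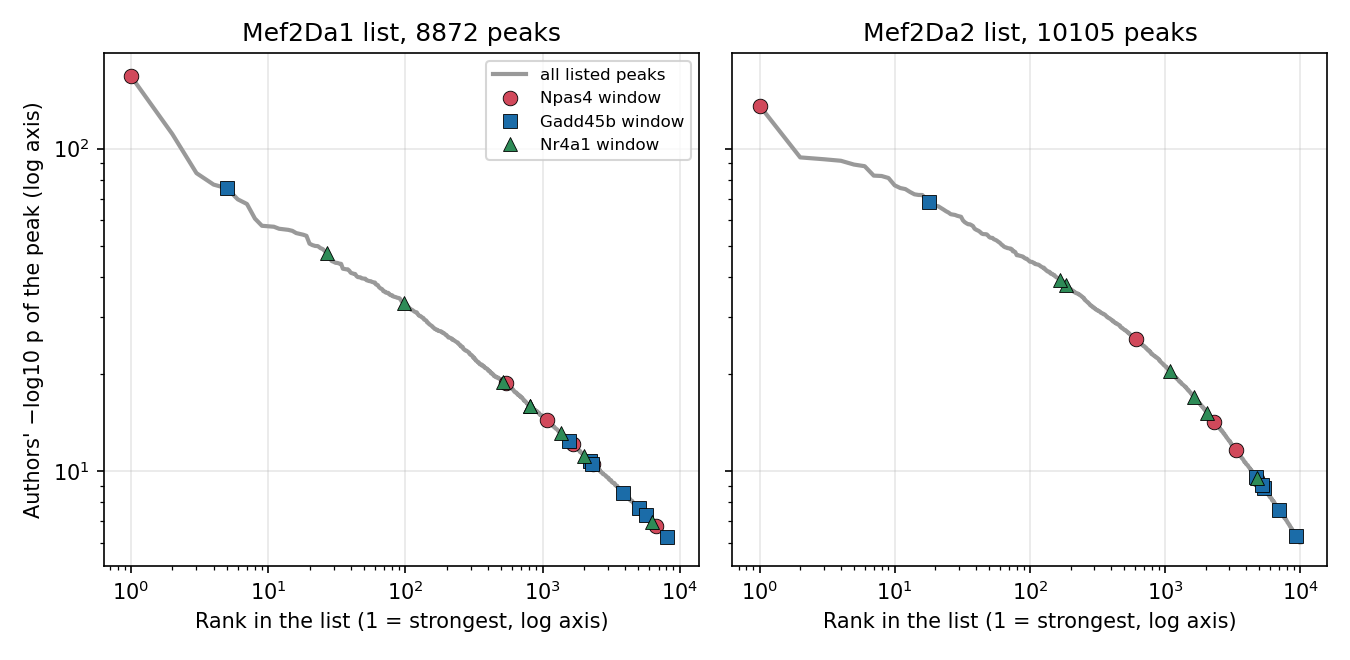
Authors' −log10 p of each listed peak against its rank in the list (both log axes), with the whole list as a grey line and member peaks as points by window. The Npas4 leading peak is rank 1 in both lists, Gadd45b is rank 5 and 18, and Nr4a1 is rank 27 for Mef2Da1, while its best Mef2Da2 peak is rank 166.

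Overlapping peaks of Mef2Da1 and Mef2Da2 were compared in position and width. There were 14 overlapping pairs in the windows, and their midpoints were 8.5 to 222.5 bp apart, with a median of 63.8 bp. Overlap itself limits this gap, and the gap was not measured over all pairs of the lists. In 12 of the 14 pairs (85.7%) Mef2Da1 had the wider peak, as in 73.4% of all 5527 overlapping pairs of the lists. In 9 (64.3%) it enclosed the Mef2Da2 peak, as in 49.1% of all pairs. The leading peaks were wide: 1157, 1295 and 1063 bp for Mef2Da1 at Npas4, Gadd45b and Nr4a1, and 868, 1123 and 677 bp for Mef2Da2, against list medians of 430 and 346 bp. At Gadd45b the leading region also held a separate Mef2Da1 peak, 80401758 to 80402816, with a height of 73 and no Mef2Da2 peak on it.

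Height over the blocked control was then read over all 26 regions. Mef2Da1 was at least 2-fold above Mef2Da1-BLOCK in 22 of 26 regions (84.6%), and the share over all 19749 regions was 64.7%. Mef2Da2 was at least 2-fold above Mef2Da2-BLOCK in 20 of 26 (76.9%), and the share over all regions was 75.0%. The Mef2Da2 share was thus close to that of the whole table. The members had a median log2 ratio of 1.46 in Mef2Da1, where the table as a whole had 1.19, and of 2.01 in Mef2Da2, where it had 1.63. Since the loci were chosen from strong peaks, nothing is read from these shares about the members.

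These counts depended on scaling. Setting the libraries equal in total height over the table lowers the log2 ratio by 1.37 for Mef2Da1 and 1.95 for Mef2Da2. On that scale 4 member regions passed 2-fold for Mef2Da1, with 7.08% of all regions past it, and 6 for Mef2Da2, with 13.7% of all regions past it. Centring on the median ratio instead left 6 for Mef2Da1 (9.75% of all regions) and 7 for Mef2Da2 (20.1% of all regions). With total scaling, the Mef2Da1 regions were the 3 leading regions and region 6 of the Nr4a1 window. Those of Mef2Da2 were the 3 leading regions, region 4 of Npas4, region 6 of Gadd45b and region 5 of Nr4a1.

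**Figure D3:**
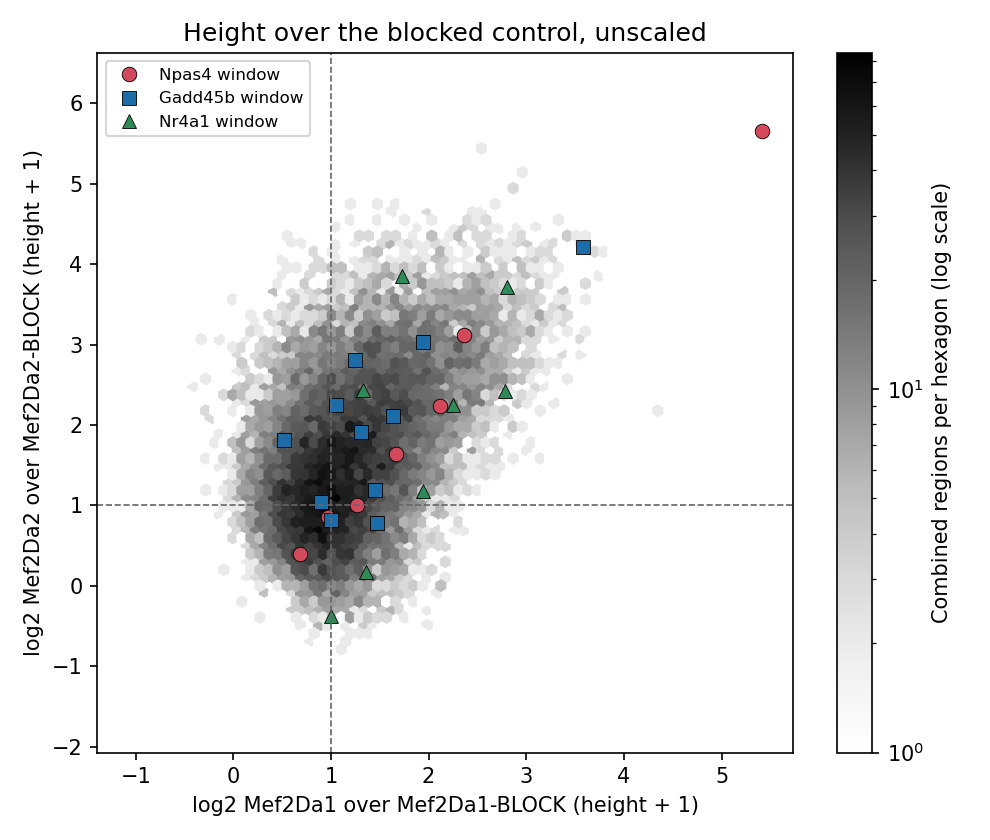
Unscaled log2 ratio of Mef2Da1 to its blocked control (x axis) and of Mef2Da2 to its own (y axis), after adding 1 to each height, for all 19749 combined regions (grey hexagons) and the 26 member regions (coloured by window). Dashed lines mark 2-fold, and the Npas4 leading region lies at 5.41 and 5.65, the highest Mef2Da1 ratio of the table, whereas region 8 of the Nr4a1 window is below 0 for Mef2Da2 at -0.37.

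Mef2Da1 and Mef2Da2 were compared directly after scaling each to its total height over the table. At the leading regions the isoforms were close: the log2 ratio of Mef2Da1 to Mef2Da2 was 0.08 at Npas4, 0.11 at Gadd45b and 0.31 at Nr4a1. The first 2 of these changed sign when the ratio was centred on its median over all regions, to -0.091 and -0.059, so no direction is given for them. Mef2Da1 was at least 2-fold higher in 4 of 26 regions, and 9.62% of all regions were so. Mef2Da2 was at least 2-fold higher in 1 of 26, and 7.03% of all regions were so.

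That single region toward Mef2Da2 was region 5 of the Nr4a1 window, where the scaled ratio was 2.15-fold and where both isoforms had a listed peak. Those toward Mef2Da1 were regions without a Mef2Da2 peak: region 2 of Npas4 (2.17-fold), region 7 of Npas4 (2.10-fold), region 3 of Gadd45b (3.07-fold) and region 8 of Nr4a1 (2.21-fold). Region 7 of Npas4 had no listed peak of either isoform. Unscaled heights of Mef2Da1-BLOCK and Mef2Da2-BLOCK were 21 and 11, 27 and 15, 26 and 13, and 26 and 30, in the same order. Mef2Da1-BLOCK was the higher in 22 of 26 regions and in 16477 of all 19749. The part of the blocked signal in these isoform ratios was not tested. When the ratio was centred on its median over all regions, only region 3 of Gadd45b stayed past 2-fold toward Mef2Da1, at a log2 ratio of 1.45, and the other 3 fell to 0.95, 0.91 and 0.98. Region 5 of Nr4a1 stood at -1.27 on that scale. With 1 library each, none of these ratios can be set against a replicate error. Listed peaks of both isoforms were found in 13 of 26 regions (50.0%), and 26.6% of all combined regions had them.

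**Figure D4:**
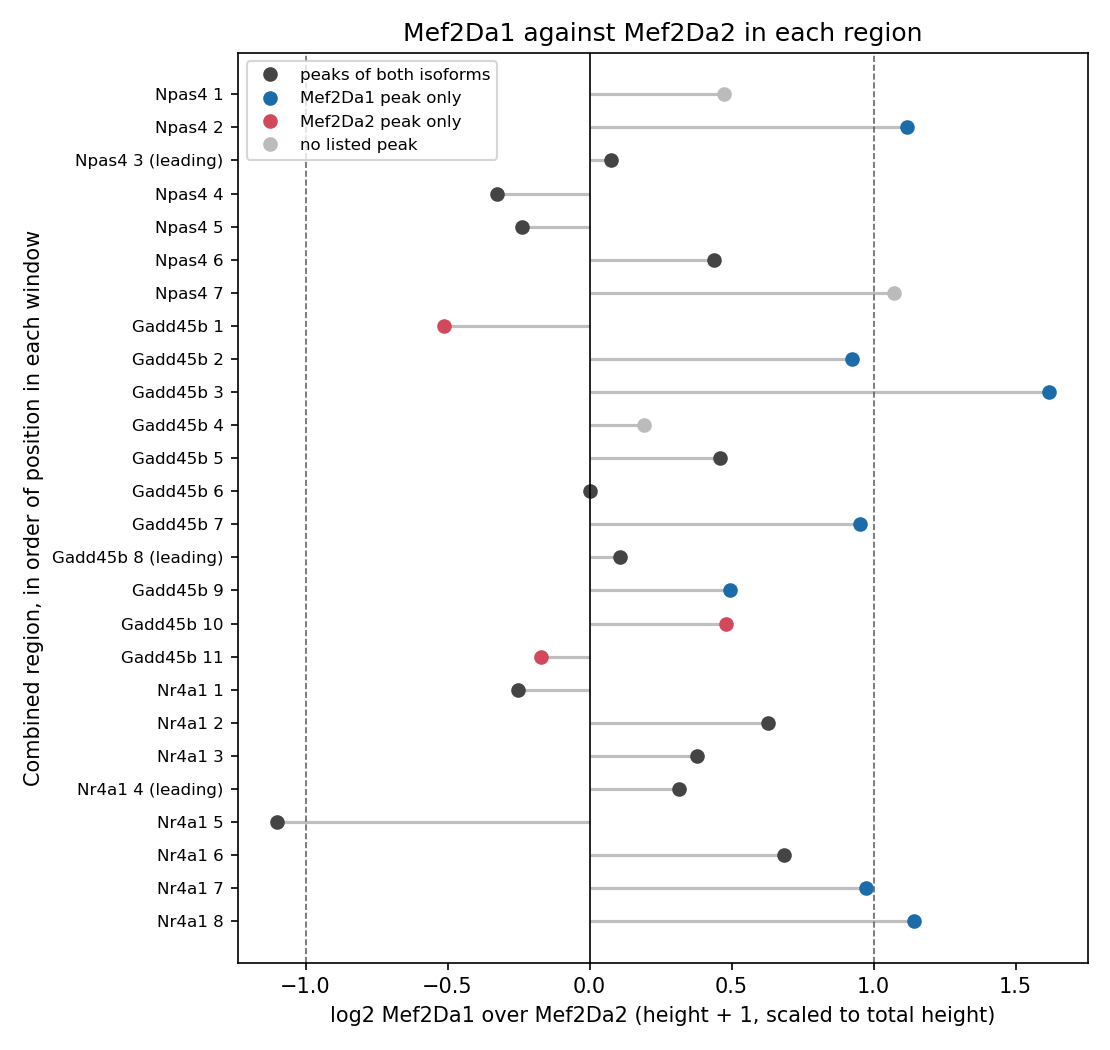
Log2 ratio of Mef2Da1 to Mef2Da2 (height + 1, each library scaled to its total over the table) in each of the 26 regions, in order of position in each window and coloured by which isoforms had a listed peak. Dashed lines mark 2-fold, and the leading regions lie at 0.08, 0.11 and 0.31, while region 5 of the Nr4a1 window is the only one beyond 2-fold toward Mef2Da2.

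The number of regions was also set beside that of windows of the same length laid end to end along the chromosomes, as a description, since the loci were chosen for strong peaks. Of windows that held any region, 4.93% had at least the 7 of Npas4, 0.490% at least the 11 of Gadd45b and 3.82% at least the 8 of Nr4a1, and their median was 2. Over all windows, empty ones included, the shares were 1.76%, 0.173% and 1.45%. On chromosome 15 by itself, 45 of 855 windows, empty ones included (5.26%), held 8 or more. Member regions were also wide, with a median of 929 bp against 556 bp over the table.

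Other genes share these windows or border them, and the regions may lie nearer to them than to the 3 genes. By order in the RefSeq gene table of GRCm38.p6, the closest protein-coding neighbours of Npas4 were Mrpl11, a mitochondrial ribosomal protein, and Slc29a2, a nucleoside transporter. Those of Gadd45b were Lmnb2, which encodes lamin B2, and Gng7, a G protein gamma subunit. Those of Nr4a1 were Grasp, a scaffold protein, and Atg101, a factor of autophagy initiation. Distances to these genes were not measured, since no mm9 annotation was used. For the same reason 14 further activity-induced genes, among them Nr4a2, Nr4a3, Gadd45a, Gadd45g, Arc and Egr1, were not analysed here.

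The members nearest the window edges were compared with the nearest regions beyond them, without a test. The outermost Npas4 region on the upper side, 0.561 kb inside, had heights of 44 and 20, and the next, 1.62 kb outside, had 40 and 32. On the lower side the outermost member, 27.9 kb inside, had 40 and 28, and the nearest region beyond, 56.2 kb outside, held peaks of both isoforms with heights of 90 and 59. At Gadd45b, the outermost regions inside had 39 and 55 (lower side, 2.08 kb from the edge) and 37 and 41 (upper side, 21.7 kb). The nearest outside had 29 and 29 (24.5 kb) and 44 and 50 (5.28 kb), in the same order. At Nr4a1 the outermost member on the lower side, 37.0 kb inside, had 87 and 102. The nearest region beyond, 7.4 kb outside, had 47 and 20. Blocked heights were 34 and 18 inside and 35 and 17 outside. On the upper side the outermost member, 8.39 kb inside, had 53 and 23 against 26 and 30. The nearest beyond, 3.33 kb outside, had 45 and 33 against 24 and 15. In each of these pairs the Mef2Da1 or Mef2Da1-BLOCK height comes first.

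Regions elsewhere with the most similar set of heights over the 4 libraries were named by the smallest Euclidean distance in log2(height + 1). The region closest to the Npas4 leading region, on chromosome 10 at 85775792 to 85777110, was 1.29 away, with heights of 583 and 446 against 30 and 22. That distance exceeds those of the other loci. It is not a separate result, because the Npas4 leading region has the highest height of the table in both isoforms. For Gadd45b the closest was at chromosome 17, 15598576 to 15600400, at a distance of 0.42, with 374 and 441 against 27 and 17. The next was at chromosome 5, 53009064 to 53010310, at 0.43, with 448 and 345 against 25 and 18. For Nr4a1 it was at chromosome 8, 86272448 to 86273431, at 0.32, with 288 and 186 against 31 and 15. The next was at chromosome 4, 43411555 to 43413240, at 0.43, with 207 and 219 against 33 and 17. Likeness of heights over 4 libraries is a description of these libraries alone.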

How the data were processed

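The authors' files were a peak list for Mef2Da1, another for Mef2Da2, and a combined table giving values of all 4 libraries in each region. Per the submitters' processing notes, BWA 0.5.9 and the build mm9 were used; not given in the sources used here are the peak caller, its filters, read totals and the way regions were combined. The deposited signal is a coverage height in whole numbers, not scaled to depth. The deposited lists and table also give a −log10 p. For the blocked libraries this deposited column was treated as a score, since 1 value of Mef2Da1-BLOCK and 9 of Mef2Da2-BLOCK lay below 0. Each table column was assigned to a sample by the name of that isoform's peak list. In all 20 and 16 member regions with a listed peak, table and highest peak had the same height. Their −log10 p could differ. At the Npas4 leading region it was 167.7 in the list and 156.3 in the table for Mef2Da1, and 136.1 and 142.6 for Mef2Da2. Ranks of peaks used the lists. Peak starts are 1-based.

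The 3 windows, the members and the gene lists were chosen with earlier results of these data known. Described one by one were the leading region of each window, every region with peaks of both isoforms and every peak in the strongest 10% of a list, as well as a few regions singled out after their values were seen: the outer Nr4a1 regions, the Gadd45b region without a listed Mef2Da1 peak and the regions beyond 2-fold between isoforms. Ratios used a pseudocount of 1. The isoform-to-control ratio was not scaled; the isoform-to-isoform ratio was scaled to total height. Window, scaling, pseudocount and ranking alternatives were run. With 1 library per group there is no test and no replicate error, and with depth unknown no interval is given. Overlap and ratio code was checked on simulated data. The software was Python 3.11.15 with pandas 2.3.3, NumPy 2.4.6 and Matplotlib 3.10.9.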

Additional observations from a re-analysis of the deposited data

Results flagged for a closer look

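In region 8 of the Nr4a1 window, chromosome 15 at 101146229 to 101146613, the isoforms moved in opposite directions against their blocked controls: the unscaled log2 ratio was 1.00 for Mef2Da1 (53 against 26) and -0.37 for Mef2Da2 (23 against 30). The difference was not tested, with 1 library per group. Both ratios were below 0 after scaling to total height, at -0.37 and -2.32. Opposite unscaled directions were found in 482 of all 19749 regions (2.44%).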

How the results depend on the processing

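No paired analysis was possible because each group has 1 library. With windows 25 kb narrower on each side the Npas4 window held 4 regions. With windows 50 kb wider the Npas4, Gadd45b and Nr4a1 windows held 11, 17 and 15. Asking for a −log10 p of 10 or more left 4 Npas4 and 4 Gadd45b regions and 10 Mef2Da2 peaks over the 3 windows. Asking for whole regions or peaks inside the window changed no count. The median log2 ratio to the blocked control over the members was 0.096 for Mef2Da1 and 0.061 for Mef2Da2 with total scaling. It became 0.27 and 0.38 with median scaling, and a pseudocount of 5 gave 1.33 and 1.70. With total scaling 4 and 6 member regions passed 2-fold over the control, and with median scaling 6 and 7; such scaling centres the libraries on regions chosen for signal, by construction. The median log2 ratio of Mef2Da1 to Mef2Da2 was 0.45, and it was 0.47 without scaling, 0.42 when 5 was added to each height and 0.28 with median scaling. Member regions at least 2-fold toward Mef2Da1 numbered 4 with total scaling, with 9.62% of all regions past it. They numbered 5 without scaling, 2 when 5 was added and 1 with median scaling. The share over all regions was taken with total scaling only, so nothing is read from the other counts. Median scaling lowers every total-scaled log2 ratio by the same 0.166, and adding 5 shrinks ratios of low heights by construction. At the leading regions of Npas4 and Gadd45b the log2 ratio of Mef2Da1 to Mef2Da2 reversed to -0.091 and -0.059 with median scaling. Ranks of the leading peaks by height, or among peaks in combined regions alone, stayed within 1.5 times. Unknown depth limits every comparison between libraries.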
